A study of Mus musculus with 59 samples.

Results

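Genes of the proteasome were followed in mouse liver, bone marrow and spleen after dosing with baclofen or vehicle. A gene was taken when its symbol begins with Psma, Psmb, Psmc, Psmd, Psme, Psmf or Psmg and a digit, and only probe sets annotated with that 1 symbol were used. This gave 49 genes with 103 probe sets, of 18193 genes with 34945 probe sets of this kind on the array. Of the 49 genes, 22 have 1 probe set and 27 have several, and the probe set with the highest mean in a tissue stood for its gene there. Psmc3ip and Psme3ip1 match by name only and encode binding partners rather than subunits. The gene of the second inducible activator subunit, Psme2, shares its probe set with another symbol and was not analysed here.

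The mice were B6C3F1 hybrids. Animals of the treated groups received baclofen, a muscle relaxant that activates the GABA-B receptor, once or on 5 consecutive days, at a dose the labels do not give. Control animals received 0.5% methylcellulose, the vehicle, on the same schedule. Tissue was taken 2 h after the last dose: a piece of the left lateral liver lobe, the marrow of the right humerus and a slice of spleen. The 59 arrays hold 4 baclofen and 3 vehicle livers at 1 day and 8 baclofen and 4 vehicle livers at 5 days. Marrow and spleen have 4 baclofen and 4 vehicle arrays at 1 day and 8 baclofen and 4 vehicle arrays at 5 days. Marrow RNA was prepared with another kit than liver and spleen RNA. The groups of the livers at 1 day follow the sample titles and treatment field, with which another label conflicts for 5 of 7 livers.

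The proteasome degrades proteins that carry ubiquitin chains. Its barrel-shaped core is built of alpha and beta rings, and the catalytic sites lie in the beta subunits Psmb5, Psmb6 and Psmb7. Immune cells, and other cells exposed to interferon gamma, replace these with Psmb8, Psmb9 and Psmb10, which form the immunoproteasome and favour peptides for presentation on class I molecules. A regulatory cap of ATPases (Psmc genes) and other subunits (Psmd genes) recognises, unfolds and feeds in the substrate. Activators of the Psme family can cap the core instead, Psmf1 inhibits it in vitro, and dedicated chaperones assemble the parts.

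Upstream sequences are shown for the genes on which the results below turn: the 3 inducible catalytic subunits, the constitutive counterpart Psmb5 and the assembly chaperone Psmd9. They are the 250 bases before the annotated start site in RefSeq (GRCm38.p6), 5′ to 3′ on the gene's strand. Capitals mark matches to TGACNNNGC, the core of the antioxidant response element that factors of the Nfe2l family bind, to GAAANNGAA, a core of interferon response elements, or to TTCNNNGAA, the core of interferon gamma activated sites. Psmb8 lies at chr17:34197945-34198194 on the plus strand, Psmb9 at chr17:34187331-34187580 on the minus strand, Psmb10 at chr8:105938393-105938642 on the minus strand, Psmb5 at chr14:54617996-54618245 on the minus strand and Psmd9 at chr5:123227940-123228189 on the plus strand.
Psmb8: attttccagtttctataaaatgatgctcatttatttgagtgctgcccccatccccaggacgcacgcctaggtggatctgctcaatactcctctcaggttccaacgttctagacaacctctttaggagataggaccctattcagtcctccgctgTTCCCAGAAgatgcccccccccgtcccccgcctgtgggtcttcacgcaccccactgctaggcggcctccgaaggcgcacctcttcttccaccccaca
Psmb9: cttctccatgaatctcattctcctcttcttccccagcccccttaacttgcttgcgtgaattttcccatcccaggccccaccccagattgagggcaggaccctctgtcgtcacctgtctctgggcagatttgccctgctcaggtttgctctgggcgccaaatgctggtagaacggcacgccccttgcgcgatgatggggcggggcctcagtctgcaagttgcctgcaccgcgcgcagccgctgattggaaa
Psmb10: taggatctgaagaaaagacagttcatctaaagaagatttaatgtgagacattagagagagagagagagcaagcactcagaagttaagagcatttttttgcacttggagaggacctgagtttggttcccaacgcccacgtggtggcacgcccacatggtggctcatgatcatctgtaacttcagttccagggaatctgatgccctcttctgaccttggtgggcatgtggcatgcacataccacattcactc
Psmb5: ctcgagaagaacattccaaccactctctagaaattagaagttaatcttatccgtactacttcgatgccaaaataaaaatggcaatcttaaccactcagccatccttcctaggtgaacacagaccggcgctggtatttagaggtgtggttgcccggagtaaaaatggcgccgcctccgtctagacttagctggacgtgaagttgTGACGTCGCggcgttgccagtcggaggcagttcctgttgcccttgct
Psmd9: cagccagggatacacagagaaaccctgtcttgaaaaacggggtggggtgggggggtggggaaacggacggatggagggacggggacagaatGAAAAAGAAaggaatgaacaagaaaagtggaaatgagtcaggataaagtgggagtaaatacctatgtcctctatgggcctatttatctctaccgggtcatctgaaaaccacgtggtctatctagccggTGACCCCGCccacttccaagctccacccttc
In Psmb8 the capitals mark an activated-site core, in Psmb5 an antioxidant element core, and in Psmd9 first an interferon element core and then, nearer the start, an antioxidant element core. Windows were available for 41 of the 49 genes. The antioxidant core, searched on both strands, was found in 5 of them (Psmb5, Psmb6, Psmc6, Psmd12 and Psmd9) and in 10.2% of all 32851 windows. The interferon element core was found in Psmb3, Psmd4 and Psmd9, and in 7.13% of all windows. The activated-site core was found in Psmb8 and Psmg1, and in 7.02% of all windows. A match describes letters and not a bound site.

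Values are log2 of the deposited signal intensity, and differences are baclofen minus vehicle on that scale, with limma's standard error (SE). A gene was called when its p, adjusted over all genes tested in the comparison (Benjamini-Hochberg), was under 0.05. Genes at or above the 40th percentile of mean intensity in a tissue were tested, 10916 per tissue. Of the 49 proteasome genes 46 were tested in liver and 47 in marrow and in spleen. The dim ones were Psma8, a testis alpha subunit, and Psmb11, a thymus beta subunit, in every tissue, and Psmc3ip in liver. Most genes with a core, cap or catalytic role were bright: Psmb7 lay at the 97.7th percentile of all genes in liver and Psmb5 at the 95.1st in marrow. Over the 6 baclofen comparisons there were 15 calls of 12 proteasome genes, and 37 genes were never called. The 37 include Psma8 and Psmb11, which were not tested in any tissue. Of all tested genes, between 2.67% (liver at 1 day) and 15.5% (spleen at 1 day) were called in these comparisons. The count of each comparison is set beside its share below.

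Marker lists matched the tissue labels, with exceptions in 4 libraries. Averaged over 11 hepatocyte genes, log2 intensity was 14.40 to 14.63 in liver and 5.34 to 5.87 in marrow. In spleen this average was 9.51 in baclofen replicate 5 at 5 days and 9.63 and 7.17 in vehicle replicates 3 and 1 at 5 days, against 5.10 to 6.30 in the other 17 spleens. In marrow the mean of 10 skeletal muscle genes was 10.11 in baclofen replicate 3 at 1 day, against 6.63 to 8.09 in the other 19. Counts and calls in marrow at 1 day and in spleen at 5 days are also given without them.

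In liver after 5 doses all 3 inducible catalytic subunits were lower with baclofen, while the 3 constitutive ones were not called. In that comparison 5 of 46 proteasome genes were called, against 10.6% of all genes tested. Psmb9 (chromosome 17, 34182030 to 34187330, GRCm38.p6), the inducible subunit that replaces Psmb6, was 7.29 at the lowest, 8.04 at the median and 8.43 at the highest in the 8 baclofen livers, against 8.51, 8.77, 8.56 and 8.46 in the 4 vehicle livers. Every baclofen liver lay below every vehicle liver. Psmb9 fell 1.55-fold (difference -0.63 ± 0.17, SE, adjusted p = 0.0209). Psmb8 (chromosome 17, 34198195 to 34201454), which replaces Psmb5, was 8.54, 8.76 and 8.86 at the lowest, median and highest in baclofen livers, against 9.08, 9.39, 9.14 and 8.92 in vehicle livers. Again the groups did not overlap, and Psmb8 fell 1.33-fold (-0.41 ± 0.10, adjusted p = 0.0114). Psmb10 (chromosome 8, 105935728 to 105938392), which replaces Psmb7, was 8.98, 9.09 and 9.31 at the lowest, median and highest in baclofen livers, against 9.28, 9.54, 9.47 and 9.23 in vehicle livers. The highest baclofen liver overlapped the lower vehicle livers, and Psmb10 fell 1.21-fold (-0.27 ± 0.08, adjusted p = 0.0319).

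The constitutive subunits were not called in the same livers. Psmb5, the chymotrypsin-like subunit, was 10.95, 11.03 and 11.12 at the lowest, median and highest with baclofen, against 10.92, 11.11, 10.97 and 10.89 with vehicle. Its difference was 0.06 ± 0.05 (95% interval -0.05 to 0.17), that of the caspase-like Psmb6 0.05 ± 0.05 (-0.06 to 0.16) and that of the trypsin-like Psmb7 0.04 ± 0.05 (-0.07 to 0.15). Psme1, the interferon-inducible activator subunit that is often grouped with the immunoproteasome, differed by -0.03 ± 0.06 (-0.15 to 0.10). The groups overlapped for each of these 4 genes.

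After 1 dose the inducible subunits were not called in liver. Psmb8 was 8.74, 9.17, 9.09 and 8.73 with baclofen, against 9.16, 9.16 and 9.27 with vehicle (-0.26 ± 0.12, adjusted p = 0.372). Psmb9 differed by -0.20 ± 0.21 and Psmb10 by -0.18 ± 0.10. Values of baclofen and vehicle livers overlapped for all 3. From 1 to 5 days the Psmb9 effect moved by -0.43 ± 0.27 (adjusted p = 0.621) and those of Psmb8 and Psmb10 by -0.15 ± 0.16 and -0.09 ± 0.13, so the times are not shown to differ.

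**Figure D1:**
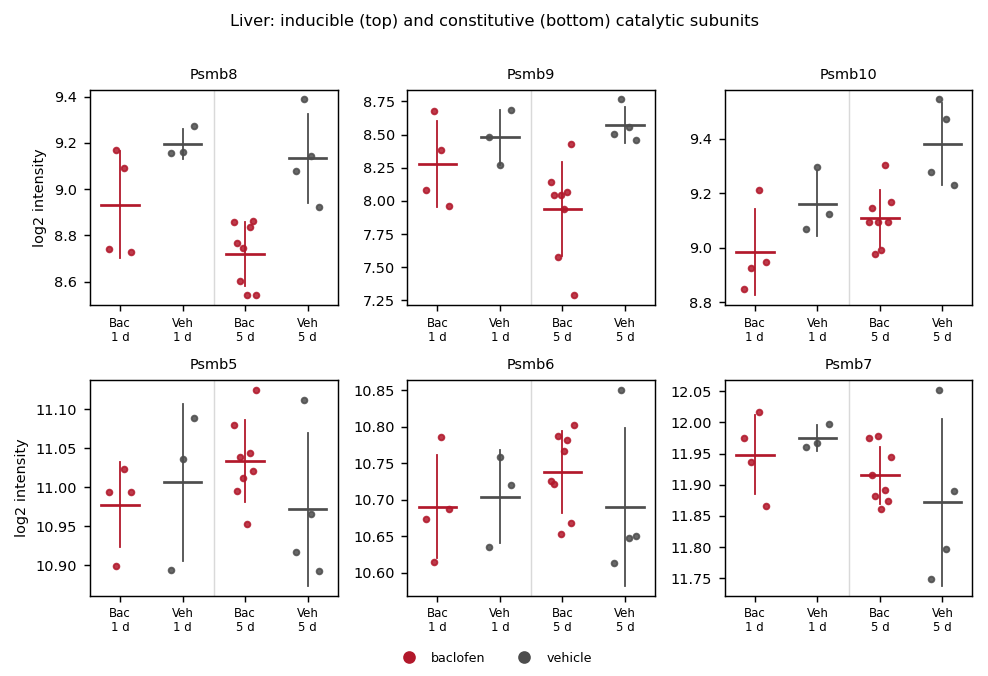
Log2 intensity of the inducible (top row) and constitutive (bottom row) catalytic subunits in each liver array, with each panel on its own scale. Points are arrays, bars are group means and lines are ± 1 SD (n = 4, 3, 8 and 4 from left to right). At 5 days the 8 baclofen livers lie below the 4 vehicle livers for Psmb8 and Psmb9 and overlap with them for Psmb5, Psmb6 and Psmb7.

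Genes near the inducible subunits, and genes of the same presentation pathway, were read beside them. Psmb9, Tap1, Psmb8 and Tap2 lie next to each other in a run of 34292 bases on chromosome 17, and the start sites of Psmb9 and Tap1 are 226 bases apart, facing away from each other. The upstream sequence of Psmb9 printed above therefore holds the whole stretch between these genes and reaches into the start of Tap1. Tap1, a subunit of the transporter that carries peptides to class I molecules, was 6.92, 7.07 and 7.35 at the lowest, median and highest in baclofen livers at 5 days, against 7.57 to 7.72 in vehicle livers. It fell by 0.55 on the log2 scale (difference -0.55 ± 0.12, adjusted p = 0.00946), with no overlap. Its partner Tap2 differed by -0.24 ± 0.08 (adjusted p = 0.061). Of 13 tested genes of class I presentation and the interferon gamma response, 4 fell in liver at 5 days and 0 rose, where 10.6% of all genes were called. Besides Tap1 these were Irf1, a transcription factor that interferon gamma induces (7.87 to 8.79 with baclofen against 9.01 to 9.43 with vehicle, -0.93 ± 0.15, adjusted p = 0.000629), and Calr (-0.33 ± 0.08) and Pdia3 (-0.32 ± 0.10), chaperones that help to fold class I molecules. The median of the 13 was -0.18, against -0.02 over all genes tested. After 1 dose Irf1 was the only one of them called, at -1.16 ± 0.18 (adjusted p = 0.000949), while Tap1 differed by -0.06 ± 0.15. The list was chosen with earlier results of these data known. Its counts and median are therefore not independent of the results for the inducible subunits.

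Markers of liver macrophages were lower on average with baclofen at both times, with overlapping ranges. The mean of 7 macrophage genes was 8.04 ± 0.18 (SD, n = 8) with baclofen and 8.48 ± 0.23 (n = 4) with vehicle at 5 days, with ranges of 7.84 to 8.33 and 8.26 to 8.80. At 5 days C1qc (-0.49 ± 0.15) and Mpeg1 (-0.77 ± 0.19) fell, and the other 5 were not called. At 1 day, when no inducible subunit was called, the mean was 8.43 ± 0.33 (n = 4) with baclofen and 8.77 ± 0.41 (n = 3) with vehicle. The ranges there were 8.19 to 8.90 and 8.44 to 9.24, and 0 of the 7 genes were called. The mean of the 11 hepatocyte genes was 14.57 to 14.63 with baclofen and 14.40 to 14.51 with vehicle at 5 days, and 14.56 to 14.61 with baclofen and 14.41 to 14.49 with vehicle at 1 day, without overlap at either time. Of these genes Tat rose by 1.35 ± 0.18 at 5 days and 1.39 ± 0.22 at 1 day, and Cps1 by 0.20 ± 0.05 at 5 days. The rest were not called. The median difference of the 11 genes was 0.05 at 5 days and 0.02 at 1 day, so Tat weighs heavily in the means. Only 1 gene each of the neutrophil, B cell and T cell lists was bright enough to test in liver, and the means of those lists lay between 4.59 and 5.28 in all 19 livers. The part of macrophage or hepatocyte content in the fall of the inducible subunits was not tested. In whole tissue, fewer cells of a type and less RNA per cell cannot be told apart.

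The liver calls at 5 days depended on single libraries. Without vehicle replicate 2 the adjusted p was 0.0564 for Psmb8, 0.078 for Psmb9 and 0.125 for Psmb10. Without vehicle replicate 3 it was 0.0594 for Psmb9 and 0.114 for Psmb10, and without baclofen replicate 3 or 5 it was 0.0566 or 0.0553 for Psmb10. With a covariate for RNA quality, the signal of the 3' control probe sets minus that of the 5' ones, Psmb8, Psmb9 and Psmb10 had adjusted p of 0.0606, 0.0647 and 0.211, and with array weights Psmb9 and Psmb10 had 0.0712 and 0.117. That quantity was 0.44 ± 0.04 (SD, n = 8) in baclofen livers and 0.50 ± 0.06 (n = 4) in vehicle livers at 5 days.

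In marrow after 5 doses Psmb9 was called too. It was 10.08, 10.34 and 10.45 at the lowest, median and highest with baclofen, against 10.70, 10.52, 10.54 and 10.51 with vehicle. The groups did not overlap, and Psmb9 fell 1.19-fold (-0.25 ± 0.07, adjusted p = 0.0343). Psmb8 differed by -0.19 ± 0.06 (adjusted p = 0.0579) and Psmb10 by -0.14 ± 0.07, neither past the threshold. The Psmb9 call did not hold without vehicle replicate 1 (adjusted p = 0.146) or 3 (0.0737), without baclofen replicate 1 (0.054), 2 (0.0618) or 5 (0.0577), and with no brightness filter (0.0528). After 1 dose the 3 genes differed by between -0.04 and 0.00 in marrow. In the marrows at 5 days the erythroid mean was 12.27 ± 0.11 with baclofen and 11.90 ± 0.20 with vehicle, and the neutrophil mean 13.65 ± 0.11 with baclofen and 13.79 ± 0.05 with vehicle (SD, n = 8 and 4). Their part in the marrow results at 5 days was not tested.

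The spleen, the tissue with the most inducible subunit relative to the constitutive ones, showed no call for Psmb8, Psmb9 or Psmb10. After 1 dose Psmb9 was 10.70, 10.89, 10.79 and 10.76 with baclofen, against 10.28, 10.38, 10.86 and 10.61 with vehicle (0.25 ± 0.13, adjusted p = 0.179). Psmb8 differed by 0.18 ± 0.14 and Psmb10 by 0.01 ± 0.11. After 5 doses the differences were -0.04 ± 0.11, 0.00 ± 0.12 and -0.01 ± 0.09 for Psmb9, Psmb8 and Psmb10. Without the 3 spleens that held hepatocyte transcripts they were 0.14 ± 0.13, 0.16 ± 0.16 and 0.11 ± 0.12, none of them called. The effect at 5 days differed between liver and spleen for Psmb9 by -0.59 ± 0.18 (adjusted p = 0.025) and for Psmb8 by -0.41 ± 0.14 (adjusted p = 0.0469). The Psmb9 difference lost its call without vehicle liver replicate 2 (adjusted p = 0.0606) or vehicle spleen replicate 2 (0.114). That of Psmb8 lost its call in 17 of 24 fits that left out 1 library (adjusted p up to 0.198), with no brightness filter (0.0668) and with arrays centred on the median (0.0722).

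A within-array ratio was formed from the mean log2 of the 3 inducible subunits minus that of the 3 constitutive ones. Its level has no meaning by itself, because probe sets differ in brightness, so only its differences are read. At 5 days it averaged -2.64 ± 0.19 in baclofen livers and -2.15 ± 0.09 in vehicle livers (SD, n = 8 and 4), with ranges of -2.96 to -2.39 and -2.27 to -2.08 that did not overlap. At 1 day it averaged -2.47 ± 0.21 in baclofen livers and -2.28 ± 0.06 in vehicle livers (n = 4 and 3), and the ranges overlapped. Marrow averaged -0.89 ± 0.09 with baclofen and -0.77 ± 0.16 with vehicle at 1 day (n = 4 each), and -0.95 ± 0.10 and -0.79 ± 0.07 at 5 days (n = 8 and 4). Spleen averaged 0.38 ± 0.05 with baclofen and 0.04 ± 0.39 with vehicle at 1 day, and 0.36 ± 0.18 and 0.21 ± 0.22 at 5 days. All 19 livers lay below all 20 marrows, and all marrows below all spleens. Vehicle spleens at 1 day ran from -0.36 to 0.55 and so enclosed the 4 baclofen spleens.

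**Figure D2:**
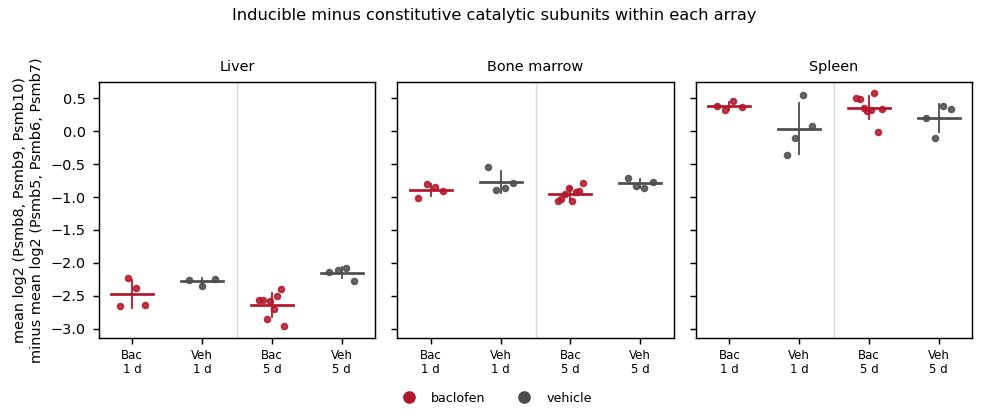
Mean log2 intensity of Psmb8, Psmb9 and Psmb10 minus that of Psmb5, Psmb6 and Psmb7 in each array, by tissue, treatment and day. Points are arrays, bars are means and lines are ± 1 SD (n = 3 to 8). The 8 baclofen livers at 5 days, from -2.96 to -2.39, lie below the 4 vehicle livers, from -2.27 to -2.08.

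The rest of the core gave no calls in any tissue. In liver 0 of the 7 alpha subunits of the ring (Psma1 to Psma7) and 0 of the 4 beta subunits without catalytic sites (Psmb1 to Psmb4) were called at either time. At 5 days the alpha genes differed by between -0.12 (Psma1) and 0.12 (Psma6) in liver. In marrow none of these 11 genes was called at either time, and in spleen none was called either, with a median of -0.14 for the alpha genes at 1 day.

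Among chaperones, Psmd9 was higher with baclofen in liver and marrow. Psmd9 (chromosome 5, 123228190 to 123250126) helps to assemble the base of the regulatory cap and is not part of the finished particle. In liver at 5 days it was 8.48, 8.68 and 8.95 at the lowest, median and highest with baclofen, against 8.17, 8.50, 8.26 and 8.53 with vehicle. The ranges overlapped slightly, and Psmd9 rose 1.27-fold (0.35 ± 0.09, adjusted p = 0.0145). At 1 day the liver values were 8.62, 8.64, 8.83 and 8.77 with baclofen, against 8.24, 8.37 and 8.42 with vehicle, without overlap. The difference of 0.37 ± 0.11 had the smallest p of the proteasome genes in liver at 1 day but was not called (adjusted p = 0.0722), and with array weights it was (0.0348). Next came Psmg3, a core assembly chaperone, at -0.20 ± 0.07 (adjusted p = 0.193, and 0.0414 with array weights). With the groups of the source field, which goes against the titles for 5 of 7 livers, the liver differences at 1 day were -0.15 for Psmd9 and 0.26 for Psmg3, neither called. In marrow at 1 day Psmd9 was 9.13, 9.11, 9.02 and 9.14 with baclofen, against 8.94, 8.90, 8.88 and 8.78 with vehicle. These did not overlap, and it rose 1.17-fold (0.23 ± 0.06, adjusted p = 0.039). In marrow at 5 days it rose 1.15-fold (0.20 ± 0.06, adjusted p = 0.0291), with 8.81, 9.03 and 9.15 at the lowest, median and highest in baclofen marrows, against 8.77 to 8.87 in vehicle marrows. Its other probe sets, which are dimmer, were also positive in liver and marrow.

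In spleen Psmd9 differed by -0.19 ± 0.17 at 1 day and by -0.20 ± 0.15 at 5 days and was not called. Its effect was higher in liver than in spleen by 0.57 ± 0.18 at 1 day (adjusted p = 0.0465) and by 0.55 ± 0.15 at 5 days (adjusted p = 0.0132). The difference at 1 day lost its call in 11 of 15 fits that left out 1 library (adjusted p up to 0.165), and with no filter (0.0638). That at 5 days lost it without vehicle spleen replicate 2 (0.0735). The 2 dimmer probe sets of Psmd9 in spleen differed at 5 days by 0.14 ± 0.08 and -0.02 ± 0.09. In liver at 5 days leaving out vehicle replicate 1 (adjusted p = 0.0566) or 3 (0.0644) ended the call. The marrow call at 1 day was lost without baclofen replicate 1 (0.11), 2 (0.0836) or 4 (0.108) or vehicle replicate 2 (0.0567), 3 (0.0816) or 4 (0.107), with the mean of the probe sets (0.126), with no filter (0.0645) and in a fit of the 2 groups alone (0.0767). At 5 days the marrow call was lost in 7 of 12 such fits (adjusted p up to 0.102), without baclofen replicate 1, 2, 5 or 6 or vehicle replicate 1, 3 or 4, and with the 3' to 5' covariate (0.0591) or the 2 groups alone (0.0541).

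**Figure D3:**
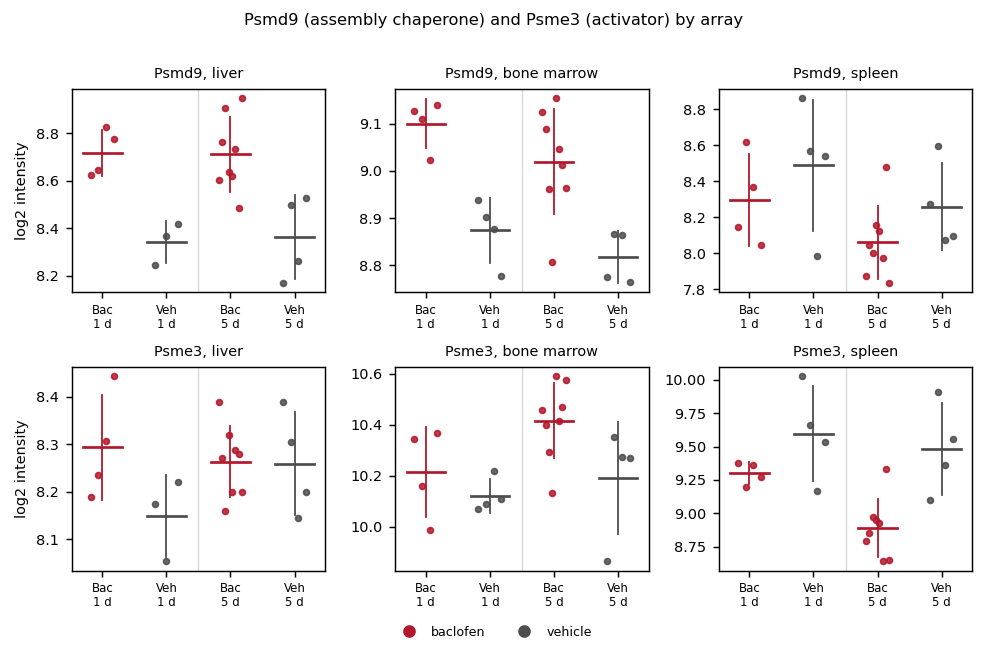
Log2 intensity of Psmd9 (top) and Psme3 (bottom) in each array of the 3 tissues, with each panel on its own scale. Points are arrays, bars are means and lines are ± 1 SD (n = 3 to 8). Psmd9 averaged 8.71 in baclofen and 8.36 in vehicle livers at 5 days, and Psme3 averaged 8.89 in baclofen and 9.48 in vehicle spleens.

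The inhibitor Psmf1 (chromosome 2, 151716062 to 151744199) was higher in marrow. At 5 days it was 9.72, 10.14 and 10.17 at the lowest, median and highest with baclofen, against 9.51, 9.77, 9.78 and 9.72 with vehicle. Only the lowest baclofen marrow, replicate 4, fell among the vehicle values, and Psmf1 rose 1.28-fold (0.35 ± 0.09, adjusted p = 0.0186). Leaving out vehicle replicate 1 ended this call (adjusted p = 0.0936). At 1 day it was 10.24, 9.96, 9.91 and 10.06 with baclofen, against 9.56, 9.76, 9.93 and 9.66 with vehicle (0.32 ± 0.10, adjusted p = 0.0629). Without the marrow that held muscle transcripts this became 0.36 ± 0.11 (adjusted p = 0.0367). In marrow at 5 days 5 of 6 erythroid marker genes also rose, among them Slc4a1, the anion exchanger of red cells (0.35 ± 0.08), and Alas2 of haem synthesis (0.41 ± 0.10). In liver at 5 days Psmf1 differed by -0.01 ± 0.06, and in spleen by -0.25 ± 0.19, or by -0.52 ± 0.24 without the 3 spleens that held hepatocyte transcripts (unadjusted p = 0.0496, not called).

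The counts of called proteasome genes are given here beside the share of all tested genes that were called. In liver at 1 day 0 of 46 were called by limma, against 2.67% of all genes, and 4 of 46 (8.7%) had an unadjusted p under 0.05, against 12.5% of all genes. In liver at 5 days 5 of 46 were called, 1 up and 4 down, which is 10.9% against 10.6% of all genes. The fifth call there was Psme3ip1, which encodes a partner protein of the activator Psme3. It was 8.28, 8.44 and 8.56 at the lowest, median and highest with baclofen, against 8.60, 8.84, 8.61 and 8.66 with vehicle (-0.24 ± 0.06, adjusted p = 0.0148). Its groups did not overlap, and its call was lost without vehicle replicate 2 (0.0728), with the 3' to 5' covariate (0.0665) and with array weights (0.0629). Without vehicle replicate 2 the count in liver at 5 days was 1 in place of 5, against 6.49% of all genes in that fit. Without vehicle replicate 3 it was 2, against 5.35% of all genes. In marrow 1 of 47 was called at 1 day, against 7.36% of all genes, and 3 of 47 at 5 days, against 10.1%. In spleen 5 of 47 were called at 1 day, against 15.5% of all genes, and 1 of 47 at 5 days, against 4.43%.

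In spleen most proteasome genes were slightly lower with baclofen. At 1 day 41 of 47 had a negative difference, with a median of -0.15, while 54.6% of all genes were negative with a median of -0.03. At 5 days 43 of 47 were negative, with a median of -0.16, against 50.7% of all genes and a median of 0.00. Most single genes did not pass the test, and members that vary together are not independent of each other. All 6 cap ATPases and all 11 other cap subunits were negative at both times, and the inducible subunits and Psme1 were positive at 1 day. Marrow at 1 day leaned the other way, with 38 of 47 positive and a median of 0.08, against 50.3% of all genes and a median of 0.00. Vehicle marrow replicate 1 stood low there: the mean of the 42 subunits, chaperones and regulators other than the inducible ones was 10.80, 10.72, 10.69 and 10.71 in the baclofen marrows, against 10.51, 10.74, 10.64 and 10.70 in the vehicle marrows. Without vehicle replicate 1, 30 of 47 were positive with a median of 0.03, and without baclofen replicate 1, 34 of 47 with a median of 0.05. Between the vehicle marrows of 5 days and of 1 day 38 of 47 were likewise positive, with a median of 0.07, against 55.2% of all genes and a median of 0.01, and the vehicle marrows of 1 day are shared by both comparisons. Without the marrow that held muscle transcripts 10 of 47 were negative in the baclofen comparison at 1 day, the median was 0.09, and 3 genes were called by limma, against 12.9% of all genes: Psmd9 (0.25 ± 0.07, adjusted p = 0.0242), Psmf1 and the alpha subunit Psma6 (0.20 ± 0.06, adjusted p = 0.0443). In liver 32 of 46 were negative at 1 day (median -0.03), against 52.9% of all genes (median -0.01), and 27 of 46 at 5 days (median -0.01), against 54.1% of all genes (median -0.02).

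**Figure D4:**
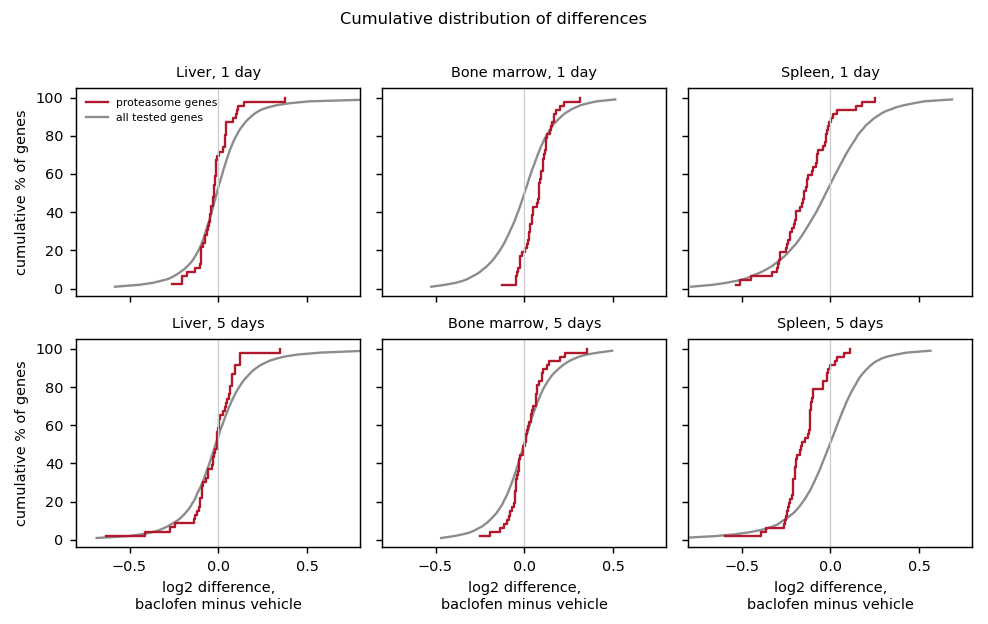
Cumulative percentage of genes against the log2 difference (baclofen minus vehicle) in each tissue and day, for proteasome genes (red steps, 46 or 47 genes) and for all tested genes (grey, 1st to 99th percentile). In spleen the red line runs left of the grey one over most of its course, with medians of -0.15 at 1 day and -0.16 at 5 days.

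The 5 genes called in spleen at 1 day all fell. Psmd7, a cap subunit that pairs with the deubiquitinase Psmd14, was 8.23, 8.50, 8.43 and 8.43 with baclofen, against 9.05, 8.94, 8.63 and 9.02 with vehicle. It fell 1.43-fold (-0.51 ± 0.11, adjusted p = 0.00415). Psmd5, a chaperone of the cap's base, was 8.57, 8.87, 8.85 and 8.71 with baclofen, against 9.68, 9.31, 8.87 and 9.27 with vehicle, and fell 1.45-fold (-0.53 ± 0.16, adjusted p = 0.0278). The highest baclofen and the lowest vehicle value of Psmd5 nearly met, and for Psmd7 the groups were further apart. Psmb5 was 10.31, 10.51, 10.43 and 10.35 with baclofen, against 10.75, 10.66, 10.61 and 10.73 with vehicle (-0.29 ± 0.08, adjusted p = 0.027). Psmg3 was 9.33, 9.52, 9.47 and 9.30 with baclofen, against 9.76, 9.76, 9.62 and 9.69 with vehicle (-0.30 ± 0.09, adjusted p = 0.03). Psmd11, a cap subunit that links base and lid, averaged 10.95 ± 0.02 with baclofen and 11.14 ± 0.10 with vehicle (SD, n = 4 each; -0.20 ± 0.06, adjusted p = 0.0363). The groups did not overlap for any of the 5 genes, which were selected by being called. The share of all genes without overlap is not given, so this adds no result about the proteasome genes. Dimmer probe sets moved less: for Psmd7 they differed by -0.11 ± 0.08 and -0.10 ± 0.08, and for Psmg3 by 0.07 ± 0.09.

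Vehicle replicate 3 stood apart from the other vehicle spleens at 1 day. The mean of the 42 tested subunits, chaperones and regulators other than the inducible ones was 10.12 in that library, against 10.40, 10.28 and 10.33 in the other 3 vehicle spleens, and 10.05, 10.19, 10.15 and 10.09 in the baclofen spleens. Without it 21 of 47 genes were called in place of 5, which is 44.7% against 27.9% of all genes in the same fit. The erythroid mean (6 genes) was 10.01 in that library, against 12.05, 11.49 and 11.31 in the other 3, and 10.41 to 11.00 in baclofen spleens. The neutrophil mean (8 genes) was 9.54 in it, against 11.12, 10.92 and 10.37 in the other 3, and 9.29 to 9.56 in baclofen spleens. Erythroid and neutrophil markers were thus lower in the 4 baclofen spleens and in that vehicle spleen than in the other 3. Over the groups the neutrophil mean was 9.42 ± 0.12 with baclofen and 10.49 ± 0.71 with vehicle, and 2 of 8 neutrophil genes fell, Mmp9 (-1.13 ± 0.30) and Cxcr2 (-0.73 ± 0.23). The part of these cells in the lower proteasome values was not tested.

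Of the other libraries at 1 day, leaving out baclofen replicate 1 or 4 or vehicle replicate 1 left 1 call of 47. In those fits 8.69%, 9.17% and 9.21% of all genes were called. Leaving out vehicle replicate 2 or 4 left 2 calls, against 10.5% and 11.3% of all genes. Psmd7 was called in all 8 such fits, and the call of Psmb5 ended without baclofen replicate 1 (adjusted p = 0.0857) or 4 (0.0726) or vehicle replicate 1 (0.0749) or 4 (0.0655). Psmd5, Psmg3 and Psmd11 lost theirs in 5, 5 and 6 of the 8 (adjusted p up to 0.104, 0.0904 and 0.112). Over 10 other settings of the processing, Psmd11 lost its call in 5 (limma, adjusted p up to 0.587). Among these were quantile normalization (0.0519) and no filter (0.0581). Psmg3 lost its call in 3 of the 10 (up to 0.287), Psmd5 in 2 (up to 0.0825), Psmb5 in 1 (0.113) and Psmd7 in 0.

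Psme3 was the only proteasome gene called in spleen at 5 days. It encodes the nuclear activator of the core (chromosome 11, 101316213 to 101323537). It was 8.64, 8.89 and 9.33 at the lowest, median and highest with baclofen, against 9.10, 9.91, 9.36 and 9.56 with vehicle. The highest baclofen spleen overlapped the lowest vehicle spleen, and Psme3 fell 1.51-fold (-0.59 ± 0.15, adjusted p = 0.0302). A second bright probe set differed by -0.70 ± 0.17. Without the 3 spleens that held hepatocyte transcripts the difference was -0.85 ± 0.18 (adjusted p = 0.0367), 39 of 47 genes were negative and the median was -0.11, against 41.0% of all genes and a median of 0.04. Without vehicle replicate 1 alone the median was also -0.11. Leaving out single libraries ended the call for vehicle replicate 2 (adjusted p = 0.143) or 4 (0.0552) or baclofen replicate 1 (0.0553), 2 (0.0505) or 6 (0.0598). It was lost with the 3' to 5' control difference as a covariate (0.0644), and with the mean of the probe sets (0.0826). At 5 days the erythroid mean was 9.83 ± 0.87 with baclofen and 10.75 ± 0.99 with vehicle (SD, n = 8 and 4), and its part was not tested.

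In marrow Psme3 differed by 0.23 ± 0.09 at 5 days (adjusted p = 0.122). Its effect differed between marrow and spleen by 0.82 ± 0.16 (adjusted p = 0.00159) and between liver and spleen by 0.60 ± 0.16 (adjusted p = 0.00968). The first kept its call in all 24 fits that left out 1 library, and the second lost it without vehicle spleen replicate 2 (0.0659).

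**Figure D5:**
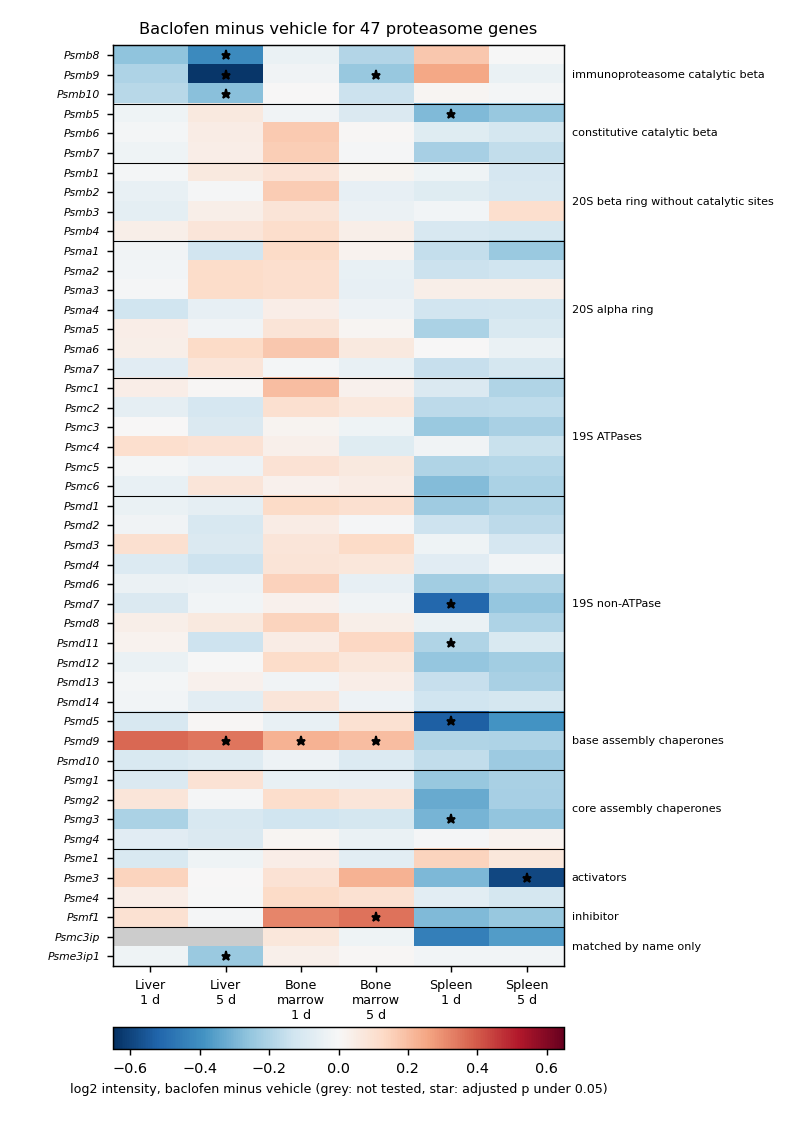
Log2 difference (baclofen minus vehicle) of 47 proteasome genes in 3 tissues at 1 and 5 days, grouped by role, with blue for lower and red for higher in baclofen. Stars mark the 15 calls (adjusted p under 0.05) and grey marks a gene not tested in liver. The inducible subunits stand out in liver at 5 days, Psmd9 in liver and marrow, and a general lean to blue in spleen.

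The difference of the baclofen effect between tissues was tested directly for each gene, on genes bright in both tissues. Between liver and marrow 0 of 46 proteasome genes differed at 1 day by limma, against 2.27% of all genes, and 2 had an unadjusted p under 0.05, against 12.8% of all genes. At 5 days 3 differed, against 7.8% of all genes: the cap subunits Psmd11 (-0.27 ± 0.07) and Psmd4 (-0.21 ± 0.07), and Psme3ip1 (-0.25 ± 0.07). Between liver and spleen 1 of 46 differed at 1 day (Psmd9, above), against 6.53%. At 5 days 10 of 46 differed, 21.7% against 11.7% of all genes. In 7 of the 10 the liver effect was the higher, among them Psmb5 (0.31 ± 0.09, adjusted p = 0.0144) and Psmd5 (0.40 ± 0.13). In the other 3, Psmb8, Psmb9 and Psme3ip1, it was the lower. Without the 3 spleens with hepatocyte transcripts and the marrow with muscle transcripts 6 differed, and leaving out single libraries gave 3 to 13. Between marrow and spleen 1 of 47 differed at 1 day (Psmd7, 0.54 ± 0.15), against 1.91%, and 4 of 47 at 5 days, against 4.48%: Psme3, Psmf1 (0.60 ± 0.19), Psmd5 (0.49 ± 0.13) and Psmd11 (0.24 ± 0.07). Leaving out single libraries gave 0 to 22 of 47 at 1 day and 1 to 13 at 5 days. Psmf1 lost its call in 16 of 24 such fits, Psmd11 in 9 and Psmd5 in 3, and Psmd7 at 1 day in 11 of 16. For the fits of this paragraph that left out libraries the share of all genes called is not given. Their counts therefore cannot be read as results about the proteasome genes.

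No proteasome gene changed its baclofen effect from 1 to 5 days by limma: 0 of 46 in liver, against 0.0183% of all genes, and 0 of 47 in marrow and in spleen, against 0% of all genes in both. An unadjusted p under 0.05 was found for 3 genes in liver, against 9.62% of all genes, for 1 in marrow, against 5.12%, and for 0 in spleen, against 7.86%. Vehicle animals at 5 days and at 1 day differed in 0 proteasome genes in each tissue, against 0% of all genes in liver, marrow and spleen. Here 3 had an unadjusted p under 0.05 in liver, against 7.14% of all genes, 0 in marrow, against 4.67%, and 1 in spleen, against 3.46%.

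Levels in vehicle animals differed between tissues for most proteasome genes, as for most genes of the array. The authors' values of liver may have been normalized apart from those of marrow and spleen, so the 59 arrays were quantile normalized. In the counts below a direction is given only where it also held with centring on the median and with the deposited values. Between liver and marrow 43 of 47 proteasome genes differed, against 90.2% of all genes, and of these 10 were higher and 11 lower in liver under all 3 scalings. Between liver and spleen 39 of 47 differed, against 91.6% of all genes, with 16 higher and 5 lower in liver under all 3. Between marrow and spleen 36 of 47 differed, against 79% of all genes, with 21 higher and 6 lower in marrow under all 3. The extraction kit differed between marrow and the other tissues and cannot be told apart from the tissue.

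Psmb8 and Psmb9 were lowest in liver. Psmb8 averaged 9.61 ± 0.13 in vehicle livers and 10.67 ± 0.09 in vehicle marrows (SD, n = 7 and 8), and 11.60 ± 0.38 in vehicle spleens (n = 8). The difference from marrow was -1.05 ± 0.09 (SE) and that from spleen -1.98 ± 0.09, and Psmb8 was also lower in marrow than in spleen (-0.93 ± 0.09). Psmb9 was lower in liver than in marrow (-1.14 ± 0.11) and than in spleen (-1.64 ± 0.11), and lower in marrow than in spleen (-0.49 ± 0.10, and -0.04 with median centring). For Psmb10 the liver differences changed sign with the scaling, and marrow was below spleen (-0.76 ± 0.07). The constitutive Psmb6 and Psmb7 were higher in liver than in marrow (0.57 ± 0.05 and 0.37 ± 0.07) and higher than in spleen (0.77 ± 0.05 and 0.74 ± 0.07). All 3 constitutive subunits were higher in marrow than in spleen, by 0.14 ± 0.05 (Psmb5), 0.20 ± 0.05 (Psmb6) and 0.38 ± 0.07 (Psmb7).

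Psme4, a large activator that caps the core without ATP and is known from testis, had the highest liver excess: it averaged 11.27 ± 0.07 in liver and 9.92 ± 0.05 in marrow (SD, n = 7 and 8), and 9.75 ± 0.17 in spleen (n = 8). Its differences were 1.35 ± 0.05 and 1.52 ± 0.05 (SE). The core subunit Psmb3 (1.06 ± 0.08), the cap ATPase Psmc1 (0.89 ± 0.06) and the cap subunit Psmd12 (0.88 ± 0.07) followed against marrow. Against spleen Psmd7 (1.05 ± 0.08), Psmc1 (1.03 ± 0.06) and Psmd12 (0.99 ± 0.07) followed. Lower in liver than in marrow were also Psmc3ip (-2.46 ± 0.11), known from meiotic recombination, and the deubiquitinase Psmd14 (-0.998 ± 0.06). Psmc3ip was lower in liver than in spleen (-1.42 ± 0.11), while Psme1 (-0.77 ± 0.04) changed sign against spleen with median centring (0.29). Psmc3ip was too dim to be tested within liver, at the 28.6th percentile there (mean 4.64 in the deposited values). It was kept here because this filter used the mean over all samples, to which marrow and spleen contribute. The size of its liver differences therefore rests on a dim liver value. Highest in marrow against spleen were Psmc3ip (1.04 ± 0.10), Psmd8 (0.59 ± 0.05), Psmd10 (0.51 ± 0.05) and Psmd5 (0.42 ± 0.09). Besides Psmb8 and Psmb10, Psme1 (-0.61 ± 0.04) and Psma3 (-0.55 ± 0.04) were lower in marrow than in spleen, at -0.09 and -0.03 with median centring.

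Proteasome genes varied together among arrays of the same group. Group means were removed first. The median correlation over pairs of 45 member genes was then 0.23 in liver, 0.53 in marrow and 0.51 in spleen. It rests on 19, 20 and 20 arrays, and the arrays of a tissue share a normalization. Over pairs of all genes the median correlation was 0.009, 0.013 and 0.053. The 3 inducible subunits correlated with each other at a median of 0.56, 0.49 and 0.88 in liver, marrow and spleen. Against the 14 core genes their median was 0.14, 0.41 and 0.02. In spleen Psmb10 had the lowest median correlation with the other members (-0.46) and Psmc3 the highest (0.77). These are descriptions across genes, which are not independent replicates.

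The spread between arrays of a group was also read for each gene. The SD within groups was smallest for Psma3 in liver (0.047, with 0.412% of all genes below it), Psmb4 in marrow (0.067) and Psmd4 in spleen (0.057). It was largest for Psmb9 in liver (0.298), Psmd7 in marrow (0.172) and Psmf1 in spleen (0.333). The median SD was 0.084 for members and 0.135 for all genes in liver, 0.101 and 0.119 in marrow, and 0.124 and 0.141 in spleen.

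Other genes of the ubiquitin and proteasome pathway, which the symbol rule does not take, were read from a list of 38, of which 27 were measured and 25 or 26 tested per tissue. Like the class I list, it was chosen with earlier results of these data known. In liver 0 of 25 were called at 1 day, where 2.67% of all genes were, and 2 rose at 5 days, where 10.6% were: the ubiquitin-binding zinc finger genes Zfand5 (0.36 ± 0.11) and Zfand2b (0.19 ± 0.05). Zfand5 encodes a protein that stimulates the proteasome. In marrow at 1 day 4 of 26 rose and 1 fell, where 7.36% of all genes were called. Fbxo32, a ubiquitin ligase subunit known from muscle wasting, rose by 0.80 ± 0.20 (adjusted p = 0.022), Zfand5 by 0.31 ± 0.06 and Zfand2a by 0.30 ± 0.08, while the ubiquitin-activating enzyme Uba6 fell by 0.48 (difference -0.48 ± 0.09). The fourth rise was Sqstm1, a cargo receptor of autophagy (0.20 ± 0.06). At 5 days, where 10.1% of all genes were called, Fbxo32 (0.78 ± 0.18) and Zfand5 (0.22 ± 0.05) rose in marrow and Sem1, a small cap subunit, fell (-0.21 ± 0.06). Fbxo32 was between 7.51 and 8.39 in the 4 baclofen marrows and between 6.84 and 7.43 in the 4 vehicle marrows at 1 day, where 1 baclofen marrow held muscle transcripts. Without that marrow its difference was 0.89 ± 0.22 (adjusted p = 0.0112). It was between 7.19 and 8.18 in the 8 baclofen marrows and between 6.64 and 7.02 in the 4 vehicle marrows at 5 days.

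In spleen at 1 day 6 of 26 of these genes fell and 1 rose, where 15.5% of all genes were called. Their median was -0.16, against -0.03 over all genes. The falls included Uchl5, a deubiquitinase of the cap (-0.49 ± 0.12), Npepps, an aminopeptidase (-0.34 ± 0.07), and Ubqln1, a shuttle for ubiquitinated proteins (-0.24 ± 0.06). Ufd1, a partner of the unfoldase Vcp, rose (0.25 ± 0.07). In spleen at 5 days Fbxo32 rose (0.86 ± 0.21, adjusted p = 0.0241) and no other gene of the list was called, where 4.43% of all genes were. Without the 3 spleens that held hepatocyte transcripts Fbxo32 lost its call (0.89 ± 0.30, adjusted p = 0.112). Of 15 tested genes of the class I list Nlrc5, an activator of class I genes (0.44 ± 0.12), and Tap1 (0.36 ± 0.11) rose in spleen at 1 day and no gene fell, while in marrow Irf1 fell at 1 day (-0.31 ± 0.09) and 0 of 15 were called at 5 days.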

How the data were processed

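The arrays are Affymetrix arrays of 45101 features. The authors deposited 1 linear signal intensity per probe set and array, made with RMA and tested with limma, per the submitters' processing notes, which give no versions. Array medians were 34.7 to 36.8 in liver and 72.6 to 77.6 in the other tissues, so liver may have been normalized apart from marrow and spleen.

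From these values log2 was taken. Leaving out 64 control features, 34945 probe sets carry 1 symbol, 932 several and 9160 none. The brightest probe set stood for a gene, and genes from the 40th percentile upwards were tested. Models were fitted with limma 3.58.1 (lmFit, eBayes) in R 4.3.3 (tables were read with the package data.table, version 1.17.8), over the 4 groups of a tissue, or over 12 groups for comparisons between tissues, with Benjamini-Hochberg adjustment over all genes tested. The fits were tested on simulated data. Genes named are the called members, the inducible and constitutive catalytic subunits, the members with the smallest p or largest tissue differences, and called genes of the listed pathways. The members and lists were chosen with earlier results of these data known. The labels do not say that replicates are separate animals, so p-values measure the spread between these samples, which may be technical. No 2 arrays held identical values, and the number of arrays limits the precision. Psme2 is not reported. Alternatives were array weights, a 3' to 5' covariate, other normalization, filters, probe set rules, labels and libraries.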

Additional observations from a re-analysis of the deposited data

Results flagged for a closer look

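Of 125 groups of 4 to 10 arrays examined for a single array far from the rest, 9 had one, where chance gives about 1 in 20. In spleen, baclofen replicate 7 at 5 days stood apart for 3 measures: Psmb8 at 11.30 against 11.51 to 11.63 in the others, Psmb10 at 10.01 against 10.21 to 10.34, and the ratio of inducible to constitutive subunits at -0.00468 against 0.31 to 0.57. That spleen had an erythroid mean of 11.27, the highest of its group, whose part was not tested. In vehicle spleens Psmd5 was 9.52 in replicate 2 at 5 days, against at most 9.05 in the others, and Psmb6 was 10.17 in replicate 4 at 1 day, against 10.08 to 10.09. In marrow Psmf1 was 9.72 in baclofen replicate 4 at 5 days, against 9.96 to 10.17, and Psmb7 was 12.05 in baclofen replicate 1 at 1 day, against 11.83 to 11.84. Psme1 was 11.13 in vehicle marrow replicate 1 at 1 day, against 11.32 to 11.35. In liver Psmb6 was 10.85 in vehicle replicate 2 at 5 days, against 10.61 to 10.65.

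The baclofen effect differed between tissues in 19 tests of the difference itself by limma. Between liver and spleen at 5 days the liver effect was higher for Psma7 (0.25 ± 0.08), Psmb5 (0.31), Psmd5 (0.40), Psmd8 (0.26 ± 0.08), Psmd9 (0.55), Psme3 (0.60) and Psmg1 (0.30 ± 0.10). It was lower for Psmb8 (-0.41), Psmb9 (-0.59) and Psme3ip1 (-0.22). At 1 day it was higher for Psmd9 (0.57). Between liver and marrow at 5 days it was lower for Psmd11 (-0.27), Psmd4 (-0.21) and Psme3ip1 (-0.25). Between marrow and spleen the marrow effect was higher for Psmd7 at 1 day (0.54), and at 5 days for Psmd11 (0.24), Psmd5 (0.49), Psme3 (0.82) and Psmf1 (0.60). Of these, Psma7, Psmb5, Psmd8 and Psmg1 lost their call without the libraries that held transcripts of another tissue, with adjusted p of 0.273, 0.176, 0.173 and 0.156, as did Psmd9 at 1 day (0.0507).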

How the results depend on the processing

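Counts of called proteasome genes moved most. In this section they stand without the share of all genes called in the same fit. They therefore describe the fits and cannot be read as results about the proteasome genes. With array weights they were 2 in liver at 1 day, 2 in liver at 5 days, 4 and 12 in marrow at 1 and 5 days and 20 in spleen at 1 day. With the 3' to 5' covariate they were 1 in liver at 5 days, 2 in marrow at 1 day and 0 in spleen at 5 days. The mean of the probe sets gave 0 in marrow at 1 day, 5 at 5 days and 0 in spleen at 5 days. Keeping all probe sets apart gave 1 in liver and 2 in marrow at 1 day, and only the 2 groups compared gave 0 in marrow and 2 in spleen at 1 day. Leaving out the marrow with muscle transcripts, chosen after seeing the data, gave 3 at 1 day, and no filter gave 0. Without single replicates the counts ran from 0 to 1 and from 1 to 6 in liver at 1 and 5 days, 0 to 3 and 0 to 4 in marrow, and 1 to 21 and 0 to 5 in spleen.

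Replicate numbers recur across groups, but the correlation of same-numbered deviations exceeded 0.1 in 2 of 3 pairs in liver at 1 day and 0 of 4 at 5 days, in 1 of 4 in marrow at either time, and in 0 of 4 and 1 of 4 in spleen at 1 and 5 days. In no tissue and time did every pair exceed it. The correlations ran from -0.46 to 0.27 over 3 or 4 pairs each. So few and scattered pairs do not show a pairing by number and cannot exclude one. With a replicate block the counts were 0 in liver at 5 days, 0 in marrow at both times, and 1 and 0 in spleen at 1 and 5 days.

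For effects that differ between tissues, no filter gave 0 and 5 for liver against spleen at 1 and 5 days and 0 and 2 for marrow against spleen. Leaving out libraries with foreign transcripts gave 0 and 6 for liver against spleen, and median centring gave 1 for liver against marrow at 5 days. Without single replicates, liver against marrow gave 0 to 0 and 1 to 4, liver against spleen 0 to 11 and 3 to 13, and marrow against spleen 0 to 22 and 1 to 13. Tissue levels gave 42 to 43, 38 to 40 and 32 to 38.

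The ratio's level moved with the probe sets: their mean gave -3.37 and -3.51 in baclofen livers at 1 and 5 days and -3.22 and -3.08 in vehicle livers, -1.90 and -1.94 in baclofen marrows and -1.76 and -1.78 in vehicle marrows, and turned spleen to -0.48 and -0.52 with baclofen and -0.83 and -0.66 with vehicle. Quantile normalization of all arrays gave -2.09 and -2.22 in baclofen livers, -1.92 and -1.79 in vehicle livers, and 0.44 in baclofen spleens at 1 day. Labels from the conflicting source field turned Psmd9 and Psmg3 in liver at 1 day to -0.15 and 0.26 (adjusted p = 1.00 by limma), and median centring turned Psme1 in liver against spleen to 0.29. Other causes were not tested.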
